A study of Bos taurus with 2 samples.

Results

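The nuclear-encoded subunits of oxidative phosphorylation were followed across the cell groups of day 25 bovine chimeric embryos by single-cell RNA sequencing. With earlier results of these data known, members were chosen by gene name. They were the NDUFA, NDUFB, NDUFC, NDUFS and NDUFV genes without the NDUFAF assembly factors, SDHA to SDHD, the UQCR genes, the COX4 to COX8 genes and the ATP5 genes. This rule took 84 of the 17846 genes in the count table, with 39 in complex I, 4 in complex II, 8 in complex III, 15 in complex IV and 18 in complex V. Complexes are assigned here by gene name, so NDUFA4, a protein now placed with complex IV, and its paralogue NDUFA4L2 stand under complex I, and the inhibitor ATP5IF1 stands under complex V. The isoform genes COX6A2, COX8C and UQCRHL were not analysed here. Nuclear-encoded subunits with gene names outside this rule were not counted as members.

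Oxidative phosphorylation takes place in the inner mitochondrial membrane. Complexes I, III and IV pass electrons from NADH to oxygen and pump protons, complex II (succinate dehydrogenase) feeds electrons from the tricarboxylic acid cycle without pumping, and complex V (ATP synthase) makes ATP from the proton gradient. Complexes I, III, IV and V combine nuclear-encoded subunits with subunits encoded by the mitochondrial genome, whereas every subunit of complex II is nuclear-encoded. Embryonic progenitors are known to lean on glycolysis, and neurons and heart muscle on respiration.

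The embryos carried incorporated bovine embryonic stem cells, were flushed on day 25, dissociated with papain, sorted and loaded for 3′ single-cell sequencing with unique molecular identifiers (UMIs). The study holds 1 group of 2 libraries, called replicate 1 and replicate 2, and no control embryo, so that the comparisons are between cell groups within the same 2 libraries. Separate embryos for the libraries, the number of embryos pooled and the sort gate are not stated in the labels. The main fits remove the average difference between the libraries. The p-values then measure how far differences between cell groups vary between these libraries, which may be technical. That spread is pooled over the cell groups and shared in part between genes. Cells derived from the added stem cells and from the host embryo are pooled in every value. Replicate 1 had 1973 barcodes and 11182089 UMIs, replicate 2 had 2464 barcodes and 15427708 UMIs, and 1842 and 2310 cells remained after filtering and removal of 7 called doublets. The libraries shared 6 cell barcodes.

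Cells were clustered on genes that exclude all members and all ribosomal protein genes, and clusters were named from lists of marker genes. The neural progenitor-like class (SOX2, NES, RFX4 and others) held 1043 cells in replicate 1 and 1220 in replicate 2, and served as the comparison class. The neuron-like class (ELAVL3, DCX and others) held 216 and 247 cells, the noradrenergic neuron-like class (DBH, TH and others) 73 and 84, the mesenchyme-like class 36 and 72 and the cardiomyocyte-like class 14 and 21. The cardiomyocyte-like cluster also carried 5 mesenchyme markers, and the part of such cells in its values was not tested. A cluster of 67 cells in replicate 1 and 1 in replicate 2 and a cluster of 68 cells in replicate 2 alone stood apart by library, and neither entered a named class. In the classes, fewer transcripts per cell and a larger total of other transcripts cannot be told apart, because levels are shares of all UMIs.

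Members summed to a higher level in noradrenergic neuron-like and mesenchyme-like cells than in progenitor-like cells, and neuron-like cells lay close to progenitor-like cells. In CPM, UMIs scaled to a total of 1000000 per group and library, members summed to 10162 ± 2098 in neuron-like, 14565 ± 1174 in noradrenergic neuron-like, 17045 ± 186 in mesenchyme-like and 11325 ± 38.0 in cardiomyocyte-like cells, against 9855 ± 1302 in progenitor-like cells (SD, n = 2 libraries each). Noradrenergic neuron-like cells were at 1.54 and 1.43 times and mesenchyme-like cells at 1.92 and 1.57 times the progenitor-like level in replicates 1 and 2. Neuron-like cells were at 0.971 and 1.08 times the progenitor level, so the 2 libraries lay on either side of it. Floor plate-like cells had 16760 ± 31.1 CPM and roof plate-like cells 17567 ± 687 CPM. The small trophoblast-like class of 7 and 10 cells had 32970 ± 2485 CPM, the highest mean of a named class. No test was made of these sums. The share of cells with at least 10% ribosomal protein UMIs, a limit taken up below, differed between classes. It was 20.2% and 26.7% in progenitor-like, 41.1% and 54.8% in noradrenergic neuron-like and 75.0% and 73.6% in mesenchyme-like cells of replicates 1 and 2. Floor plate-like cells, at 58.8% and 71.0%, had 19458 CPM above and 5036 CPM below the limit, against 18377 and 4919 CPM in progenitor-like cells. The part of this share in the sums was not tested.

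The complexes did not share 1 pattern. Complex II summed to 317 ± 17.9 CPM in mesenchyme-like cells and 329 ± 15.2 CPM in progenitor-like cells, a ratio of 0.957 in replicate 1 and 0.971 in replicate 2. Complex III in the same comparison was 2.82 and 2.29 times as high in mesenchyme-like cells, and complex IV 2.45 and 2.02 times. The groups overlapped for complex II and did not overlap for complexes III and IV.

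**Figure D1:**
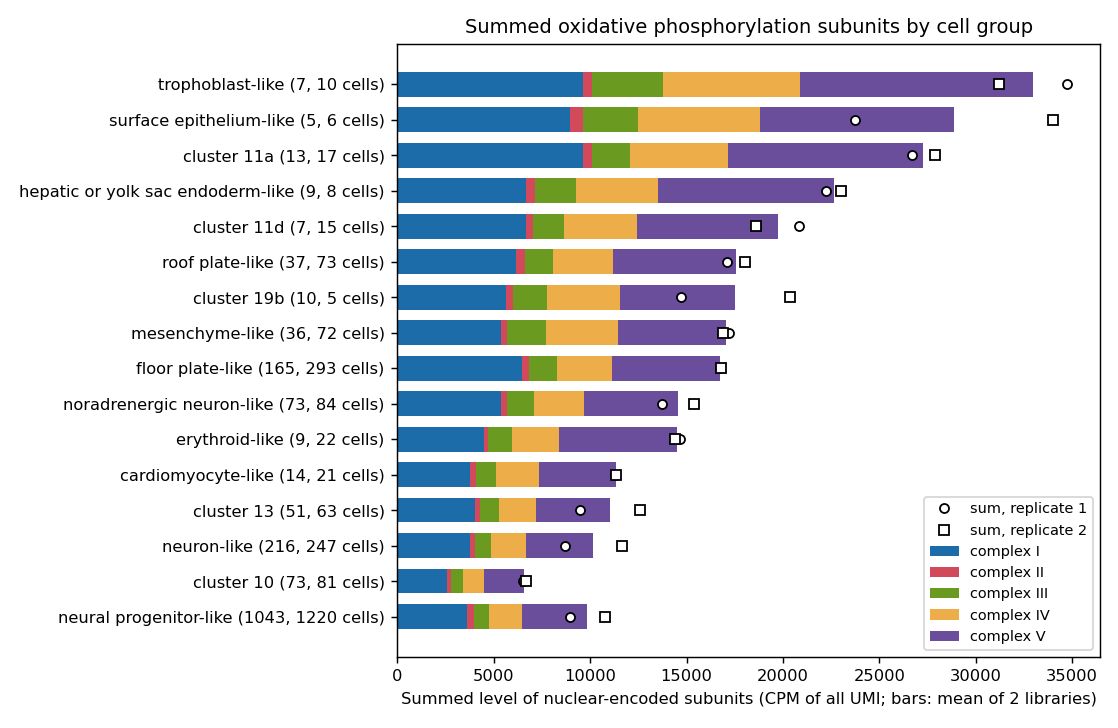
Summed level of the members in CPM by cell group, as bars of the mean of 2 libraries stacked by complex, with a circle for the total in replicate 1 and a square for replicate 2. Trophoblast-like cells are at the top with a mean of 32970 CPM and progenitor-like cells, at 9855 CPM, are in the lower part of the range.

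Within the progenitor-like class, member levels were higher in cells with a larger share of UMIs from cytoplasmic ribosomal protein genes. In replicate 1, members summed to 3417 CPM in the 194 cells with under 2% ribosomal protein UMIs, 4687 CPM at 2% to 4%, 6936 CPM at 4% to 8%, 9887 CPM at 8% to 12%, 14616 CPM at 12% to 20%, 19565 CPM at 20% to 30% and 21697 CPM in the 35 cells at 30% or more. Replicate 2 gave 3524, 4646, 6774, 10405, 13964, 19788 and 20764 CPM in the same bins, with 243 cells in the lowest and 55 in the highest. The level was higher in each bin than in the one below it in both libraries. Complex II summed to 280 CPM in the lowest bin of replicate 1 and 385 CPM in the highest, and to 334 and 406 CPM in replicate 2. The mitochondrial genome encodes other subunits of complexes I, III, IV and V. Its transcripts took 0.624% of UMIs in the lowest and 0.419% in the highest bin of replicate 1, with a peak of 0.890% at 2% to 4%. In replicate 2 they took 0.688% and 0.294%, with a peak of 0.812% at 4% to 8%. Depth differed between the bins: the median UMI count per cell was 5837 in the lowest bin of replicate 1, 4066 at 2% to 4% and 11951 in the highest bin, and 4870, 3758 and 12240 in the same bins of replicate 2.

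**Figure D2:**
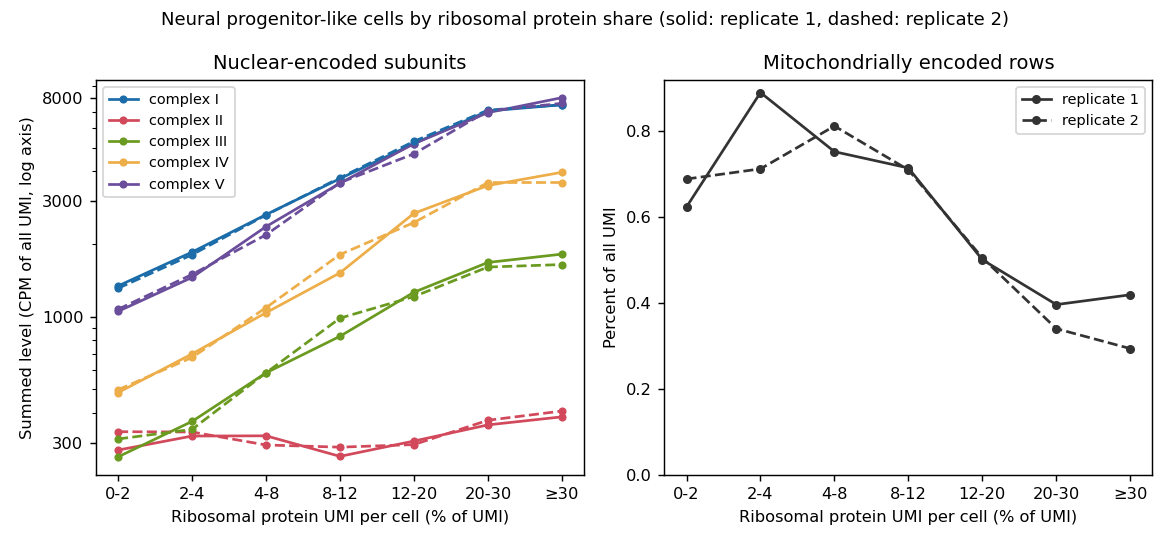
Summed CPM per complex on a log axis (left) and mitochondrially encoded UMIs as a percentage of all UMIs (right) in progenitor-like cells, against bins of the ribosomal protein share of a cell's UMIs, with solid lines for replicate 1 and dashed lines for replicate 2. Complexes I, III, IV and V are far higher in the highest bin than in the lowest in both libraries, complex II stays between 264 and 406 CPM, and the mitochondrially encoded share ends at 0.419% and 0.294%.

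The same split ran between clusters. The 7 progenitor-like clusters with under 10% ribosomal protein UMIs had member sums between 4344 and 6914 CPM, and the other 2 clusters had 18792 and 19303 CPM. Neuron-like cluster 6, led by the newborn neuron genes DLL3, INSM1 and HES6, had 15529 ± 786 CPM with a ribosomal protein share of 15.0%, while neuron-like cluster 5 had 3969 ± 2.34 CPM with a share of 2.21%. The clusters of both classes differed in member level by far more than the spread between libraries. Depth differed too: the median was 2155 to 6615 UMIs per cell in the 7 clusters and 9271 and 10869 in the other 2. It was 9142 UMIs in neuron-like cluster 6 and 4026 in cluster 5. The part of depth in these levels was not tested.

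Cells were then divided at a ribosomal protein share of 10%, a limit chosen after seeing the data. It is a cut through a range and not a cell type, and 268 cells lay between 8% and 12%. The ribosomal protein-rich progenitors (211 and 326 cells) had 18377 ± 308 CPM of members and the ribosomal protein-poor progenitors (832 and 894 cells) 4919 ± 82.5 CPM, a ratio of 3.74 in both libraries. Their median depths, averaged over libraries, were 9102 and 4377 UMIs per cell. The ratio was 3.49 ± 0.0785 for complex I, 1.11 ± 0.00799 for complex II, 3.87 ± 0.177 for complex III, 4.47 ± 0.0695 for complex IV and 4.18 ± 0.0171 for complex V (SD, n = 2). The mitochondrial ribosomal proteins, another large nuclear-encoded set, gave 1.69 ± 0.00978.

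By edgeR (quasi-likelihood, p adjusted after Benjamini and Hochberg), 78 of the 81 members tested were higher in ribosomal protein-rich than in ribosomal protein-poor progenitors and 0 were lower. Of all 4761 genes tested, 34.5% were higher and 33.7% lower. The median log2 fold change was 2.62 for members and -0.03 for all genes. By complex, the calls were 38 of 39 in complex I (median 2.44), 3 of 4 in complex II (0.64), 8 of 8 in complex III (2.74), 11 of 12 in complex IV (2.78) and 18 of 18 in complex V (3.04). The split and the members share the cells' UMI totals, so that a higher ribosomal protein share lowers all other shares. Within cells of 3000 to 10000 UMIs, 75 of 80 members were higher and 0 lower, with a median of 2.32, and DESeq2 and limma called 77 and 70 members higher and 0 lower over all cells.

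The largest log2 fold change of all members belonged to the membrane ring of ATP synthase. ATP5MC2, 1 of the genes for the ring's c subunit, had 1098 and 1190 normalised CPM in replicates 1 and 2 of the ribosomal protein-rich and 72.2 and 75.9 in the ribosomal protein-poor progenitors, a log2 fold change of 3.95 (SE 0.19, edgeR adjusted p = 4.64e-29). Its paralogues for the same ring, ATP5MC1 and ATP5MC3, changed by 3.37 (SE 0.15) and 3.29 (SE 0.12), and the inhibitor ATP5IF1 by 3.39 (SE 0.13). In the catalytic core, ATP5F1A had 354 and 409 normalised CPM against 133 and 119, a log2 fold change of 1.60 (SE 0.12), and ATP5F1B, the catalytic β subunit, had 358 and 364 against 130 and 126 (SE of the log2 fold change 0.11, edgeR adjusted p = 5.67e-19). In none of these genes did the groups overlap. Whether the subunits differed from each other was not tested, and neither was how far reads of the ATP5MC paralogues, which encode the same mature protein, or of processed gene copies are shared out between genes by the counting.

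Small subunits of complex III and several subunits of complex I came next in size. UQCR11 had 99.7 and 124 normalised CPM in ribosomal protein-rich and 8.48 and 7.29 in ribosomal protein-poor progenitors (log2 fold change 3.82, SE 0.18), and UQCR10 had 279 and 286 against 21.4 and 24.3 (3.62, SE 0.14). UQCRC2, a core protein of complex III, had 84.0 and 100.4 against 62.2 and 60.1 (0.60, SE 0.13, edgeR adjusted p = 7.54e-05). NDUFB10, an accessory subunit of the membrane arm of complex I, had 406 and 480 against 34.8 and 33.7 (3.69, SE 0.13). NDUFS8, an iron-sulfur subunit, had 195 and 240 against 18.2 and 16.3 (3.65, SE 0.14), whereas NDUFS1, the largest iron-sulfur subunit, had 27.2 and 33.0 against 31.1 and 26.6 (0.09, SE 0.18, edgeR adjusted p = 0.661). NDUFS1 was the member of complex I that did not pass the test, and its groups overlapped.

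Of 12 complex IV members tested, 11 were called higher. COX6B2, with 5 UMIs in progenitor-like cells, had a log2 fold change of 1.41 (SE 1.18, edgeR adjusted p = 0.293) and was not called. COX6A1 had 457 and 468 normalised CPM in ribosomal protein-rich and 37.6 and 46.5 in ribosomal protein-poor progenitors (log2 fold change 3.46, SE 0.13). COX6B1, COX7A2 and COX8A changed by 3.28, 3.15 and 3.12 (SE 0.13 each), NDUFA4 by 3.13 (SE 0.13), COX7A2L, a factor for supercomplexes of complexes III and IV, by 2.29 (SE 0.14) and COX4I1 by 2.44 (SE 0.12). COX7A1, the isoform known from heart and skeletal muscle, had 47.1 and 38.9 against 18.4 and 13.4 (1.42, SE 0.21). All of these except COX6B2 were called and higher in both libraries.

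Complex II, which holds 2 membrane anchors, a flavoprotein and an iron-sulfur protein, had the lowest median. SDHC, a membrane anchor, had 81.6 and 98.2 normalised CPM in ribosomal protein-rich and 85.7 and 88.7 in ribosomal protein-poor progenitors, with overlapping groups and a log2 fold change of 0.05 (SE 0.14, edgeR adjusted p = 0.753). SDHA, the flavoprotein, had 70.1 and 79.2 against 56.5 and 57.3 (0.39, SE 0.15, edgeR adjusted p = 0.0159). SDHB, the iron-sulfur subunit, had 147 and 171 against 44.0 and 53.3 (1.71, SE 0.13), and SDHD, the other anchor, 67.1 and 54.6 against 33.4 and 31.8 (0.88, SE 0.15). Under scaling by library size alone, which put the median of all genes at -0.70, SDHC and NDUFS1 were called lower with log2 fold changes of -0.57 and -0.53, and 75 members were higher.

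The division recurred in the other classes large enough to be tested. In neuron-like cells 76 members were higher and 0 lower between ribosomal protein-rich and ribosomal protein-poor cells (median 1.94; all genes 26% higher and 25.8% lower). In noradrenergic neuron-like cells 59 were higher and 0 lower (median 1.04; all genes 9.51% and 7.2%), and in floor plate-like cells 77 were higher and 0 lower (median 2.56; all genes 30.5% and 27%). SDHC was not called in any of the 3 classes. In neuron-like cells it had 122 and 80.4 normalised CPM in ribosomal protein-rich and 81.4 and 90.6 in ribosomal protein-poor cells.

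Other genes of energy metabolism were also set against this division, in which 34.5% of all genes were higher and 33.7% lower. Between ribosomal protein-rich and ribosomal protein-poor progenitors, 16 of 20 glycolysis genes were higher and 2 lower, with LDHA, lactate dehydrogenase A, at a log2 fold change of 3.41 and ENO1, enolase, at 3.32. Of 38 assembly factors tested, 22 were higher and 4 lower, led by the complex IV factor COA3 at 3.44 and the complex III factor UQCC2 at 3.18. Of 19 tricarboxylic acid cycle genes 9 were higher and 3 lower, and of 16 electron carrier and nucleotide exchange genes 12 were higher and 2 lower. The regulators of mitochondrial biogenesis gave 0 higher and 5 lower of 10, with NRF1, a transcription factor for respiratory genes, at -1.08. Of 11 mitochondrially encoded genes 0 were higher and 4 lower, and the mitochondrial ribosomal proteins gave 61 higher and 3 lower of 73.

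Neuron-like cells were compared with progenitor-like cells over all cells of each class. Of 81 members 33 were higher and 4 lower, beside 27.6% higher and 28.6% lower among the 5215 genes tested. The median log2 fold change was 0.24 for members and -0.02 for all genes. By complex, 15 members were higher and 2 lower in complex I, 4 and 1 in complex III, 6 and 1 in complex IV and 8 and 0 in complex V, and none of the 4 complex II genes was called (SDHA -0.14, SDHB 0.18, SDHC -0.01 and SDHD -0.36, with edgeR adjusted p = 0.105 for the lowest). By library size alone the median of members was -0.01 and that of all genes -0.28. In that scaling SDHD (-0.61) and SDHA (-0.39) were called lower. By library size alone 17 members were higher and 11 lower, limma called 3 members, and coarser and finer clustering gave 63 and 67.

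The members named by rank in neuron-like cells included accessory subunits of complex I. NDUFA2 had 110 and 158 normalised CPM in neuron-like and 50.2 and 67.8 in progenitor-like cells, without overlap (log2 fold change 1.18, SE 0.14, edgeR adjusted p = 7.05e-12). NDUFB8 had 134 and 211 against 76.9 and 110.2 (0.88, SE 0.14), and NDUFA8 48.6 and 66.2 against 23.0 and 37.4 (0.93, SE 0.18). Next in size were NDUFB11 (0.85), COX7A2L (0.74), the ATP synthase subunit gene ATP5MG (0.70), UQCRFS1 (0.68), the Rieske iron-sulfur protein of complex III, NDUFB10 (0.67) and NDUFA4 (0.67). The members called lower were NDUFA4L2 (-0.97, SE 0.19), COX7A1 (-0.80, SE 0.28), UQCRQ (-0.52, SE 0.16) and NDUFA12 (-0.47, SE 0.18), and DESeq2 and limma did not call COX7A1.

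Noradrenergic neuron-like cells had most members above the progenitor-like level. Of 81 members 64 were higher and 2 lower, beside 27.1% higher and 28.1% lower among all genes, and the median log2 fold change was 0.83 for members and -0.04 for all genes; limma called 42 members. Every complex V gene was higher (18 of 18), as were 29 of 39 in complex I, 6 of 8 in complex III and 9 of 12 in complex IV. NDUFA2 had 179 and 209 normalised CPM in noradrenergic neuron-like and 50.2 and 67.8 in progenitor-like cells (1.72, SE 0.17, edgeR adjusted p = 3.53e-16). UQCRH, the hinge protein of complex III, had 495 and 619 against 181 and 222 (1.47, SE 0.20), and COX8A had 229 and 265 against 81.6 and 102.9 (1.42, SE 0.15). In none of these genes did the classes overlap. NDUFB11 (1.58), NDUFA8 (1.49), NDUFB8 (1.47), NDUFA11 (1.36), NDUFB5 (1.34) and the ATP synthase stalk genes ATP5F1D (1.34) and ATP5PF (1.32) completed the ranking.

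Complex II divided in noradrenergic neuron-like cells. SDHB had 141 and 160 normalised CPM against 68.2 and 92.1 in progenitor-like cells (log2 fold change 0.91, SE 0.18, edgeR adjusted p = 5e-06), while SDHA rose by 0.48 (SE 0.20, edgeR adjusted p = 0.0407). SDHD had 26.0 and 23.6 against 41.6 and 39.5 (-0.71, SE 0.29, edgeR adjusted p = 0.0348), a call that DESeq2 and limma did not make. SDHC was at -0.11 (SE 0.20, edgeR adjusted p = 0.647).

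**Figure D3:**
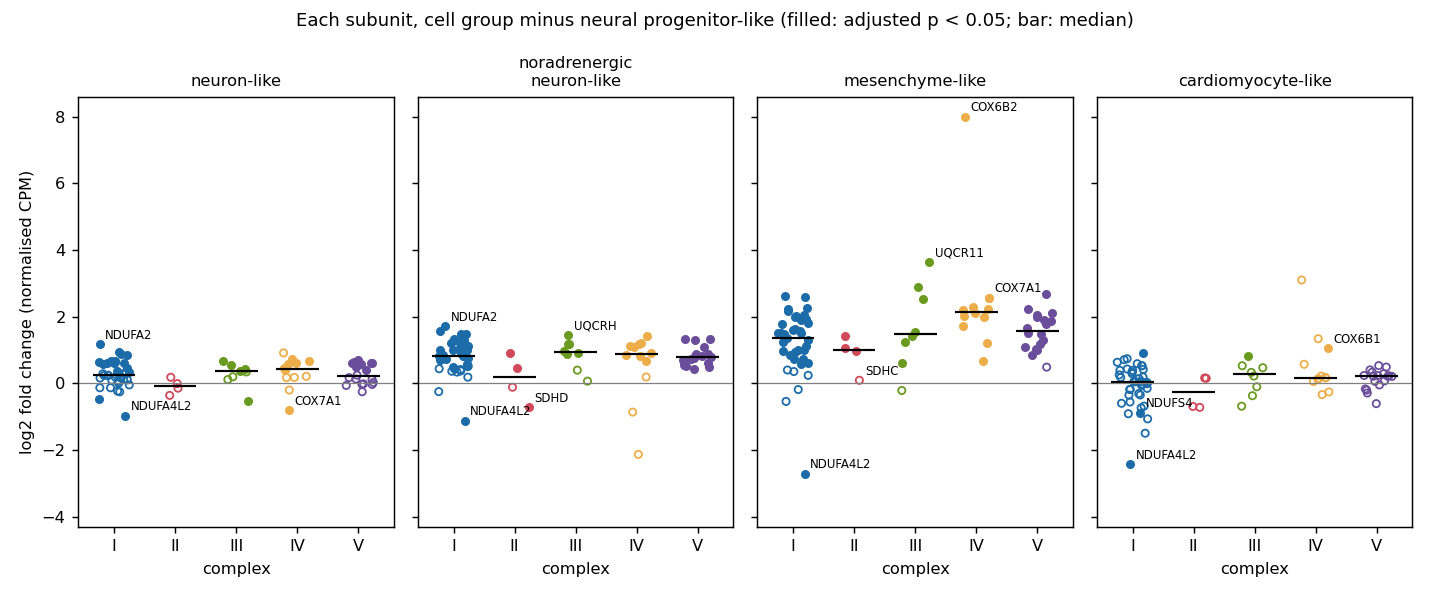
Log2 fold change of each tested member in the neuron-like, noradrenergic neuron-like, mesenchyme-like and cardiomyocyte-like classes over progenitor-like cells, by complex, with filled points for members called by edgeR and bars at the median of each complex. The medians over all members are 0.24, 0.83, 1.51 and 0.15, and NDUFA4L2 is below 0 in all 4 classes.

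Both neuronal comparisons depended on the ribosomal protein share of the cells compared. Among ribosomal protein-poor cells, 41 members were higher and 2 lower in neuron-like than in progenitor-like cells (median 0.56; all genes 30.6% and 24.8%), and 62 were higher and 1 lower in noradrenergic neuron-like cells (median 1.49; all genes 27.6% and 22.6%). Among ribosomal protein-rich cells, 9 were higher and 17 lower in neuron-like cells (median -0.12; all genes 19.2% and 22.9%), and 7 were higher and 13 lower in noradrenergic neuron-like cells (median 0.00; all genes 16.6% and 21.8%). The shares themselves differed: ribosomal protein-poor noradrenergic neuron-like cells had 5.77% ribosomal protein UMIs against 3.15% in ribosomal protein-poor progenitors, and the ribosomal protein-rich had 12.9% against 24.0%. Leaving ribosomal protein, mitochondrially encoded and globin genes out of the totals raised member sums from 16877 to 20594.5 CPM in ribosomal protein-rich neuron-like cells. In ribosomal protein-rich progenitors the same step raised them from 18377 to 24333 CPM, so neuron-like cells were not matched for these genes either. The part of these remaining gaps in the counts was not tested. Within cells of 3000 to 10000 UMIs, the ribosomal protein-rich counts turned to 22 higher and 4 lower for neuron-like and 22 higher and 9 lower for noradrenergic neuron-like cells. The ribosomal protein-rich noradrenergic counts also turned with DESeq2, to 16 higher and 7 lower, and by library size alone, to 15 higher and 11 lower. The ribosomal protein-rich neuron-like counts were 10 higher and 8 lower with DESeq2. Among ribosomal protein-poor neuron-like cells, 27 members were higher and 13 lower by library size alone (median 0.21), 19 were higher and 0 lower with limma, and with the limit at 15% 64 were higher and 2 lower (median 1.01).

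The difference between the differences was tested in 1 model. It was below 0 for 56 members and above 0 for 0 in the noradrenergic comparison (median -1.60), beside 9.79% and 1.43% of all genes. In the neuron-like comparison it was below 0 for 34 members and above 0 for 0 (median -0.60), beside 8.84% and 2.31%. The part of remaining gaps in ribosomal protein share in either count was not tested. The neuron-like count was 1 below and 0 above with limma, 10 below and 2 above within cells of 3000 to 10000 UMIs, and 21 below and 0 above by library size alone. UQCR11 gave the largest in the noradrenergic comparison: in ribosomal protein-poor cells it had 55.8 and 66.9 normalised CPM in noradrenergic neuron-like and 8.48 and 7.29 in progenitor-like cells (log2 fold change 2.93, SE 0.39), and the difference of differences was -3.05 (SE 0.43, edgeR adjusted p = 1.07e-07). ATP5MC2 had 352 and 410 against 72.2 and 75.9 in ribosomal protein-poor cells (2.36, SE 0.21), and 876 and 1004 against 1098 and 1190 in ribosomal protein-rich cells (-0.28, SE 0.18, edgeR adjusted p = 0.21).

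**Figure D4:**
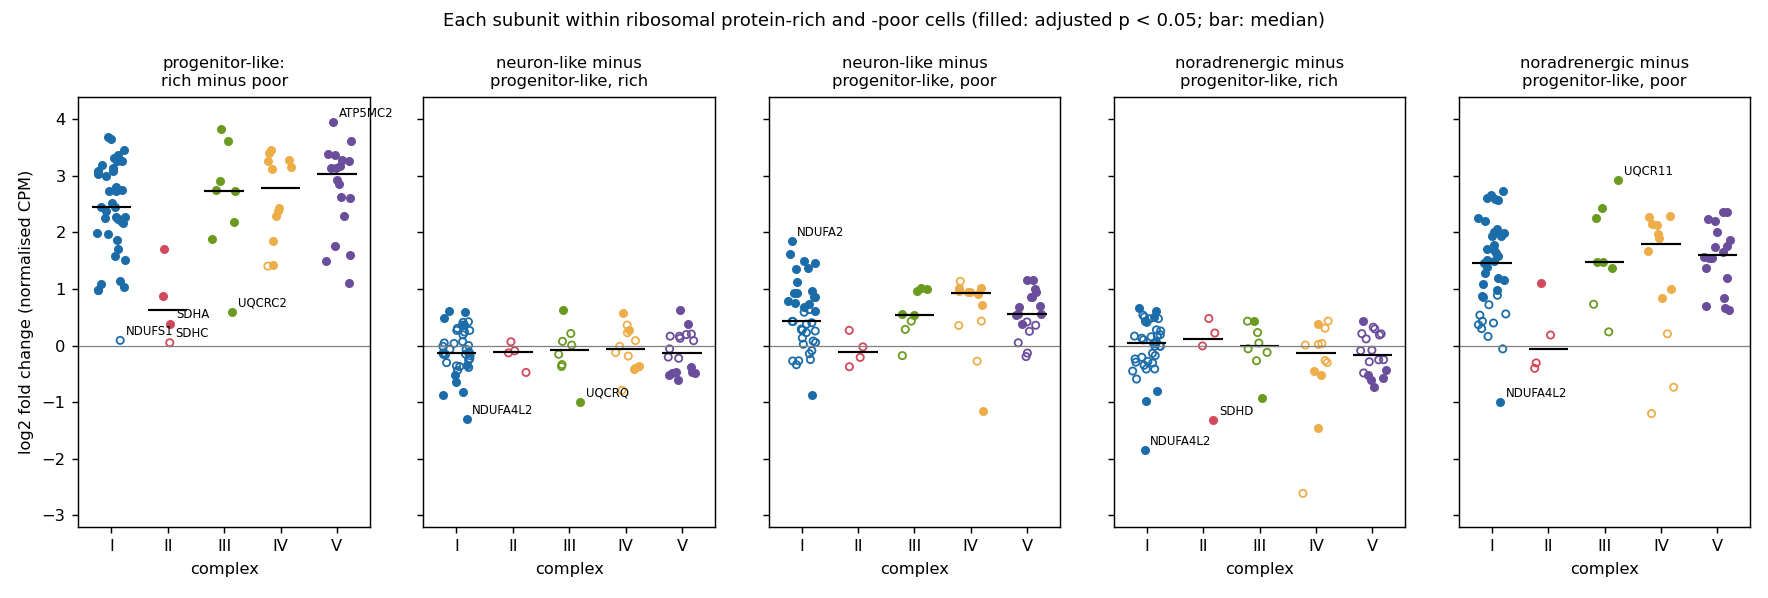
Log2 fold change of each tested member by complex in 5 panels: ribosomal protein-rich minus ribosomal protein-poor progenitor-like cells, then neuron-like and noradrenergic neuron-like minus progenitor-like cells within ribosomal protein-rich and within ribosomal protein-poor cells, with filled points for adjusted p under 0.05 in edgeR and bars at the median of each complex. In the first panel 78 of 81 members are called higher, with SDHC (0.05) and NDUFS1 (0.09) at the bottom, and the medians over all members in the noradrenergic panels are 0.00 in ribosomal protein-rich and 1.49 in ribosomal protein-poor cells.

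Single members were called in ribosomal protein-rich cells alone or in both kinds of cell. NDUFA2 was higher in noradrenergic neuron-like than in progenitor-like cells among ribosomal protein-poor cells (94.1 and 138 against 17.0 and 20.8 normalised CPM) and ribosomal protein-rich cells (263 and 255 against 161 and 165; log2 fold change 0.67, SE 0.17). UQCRQ, a small ubiquinone-binding subunit of complex III, had 138 and 126 in ribosomal protein-rich neuron-like and 273 and 249 in ribosomal protein-rich progenitor-like cells (edgeR adjusted p = 5.06e-06), and was not called in ribosomal protein-poor cells (-0.18, SE 0.24, edgeR adjusted p = 0.553). SDHD had 26.7 and 21.8 in ribosomal protein-rich noradrenergic neuron-like and 67.1 and 54.6 in ribosomal protein-rich progenitor-like cells (-1.32, SE 0.37, edgeR adjusted p = 0.0028).

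Other genes of energy metabolism were compared in the same fits, where 27.6% of all genes were higher and 28.6% lower in neuron-like and 27.1% and 28.1% in noradrenergic neuron-like cells. In neuron-like against progenitor-like cells, 9 of 43 assembly factors were higher and 14 lower, 4 of 19 tricarboxylic acid cycle genes were higher and 4 lower, 7 of 18 carrier genes were higher and 4 lower, 7 of 20 glycolysis genes were higher and 3 lower, and 0 of 13 mitochondrially encoded genes were higher and 11 lower. Noradrenergic neuron-like cells gave 10 and 11, 5 and 2, 8 and 3, 6 and 5, and 6 and 1 in the same order of lists. The assembly factor NDUFAF4 fell by 2.46 in neuron-like and by 3.43 in noradrenergic neuron-like cells on the log2 scale. In noradrenergic neuron-like cells the adenine nucleotide exchanger SLC25A4 rose by 2.45 and the neuronal enolase ENO2 by 3.44. PPARGC1A, a coactivator of mitochondrial biogenesis, was the regulator that rose in neuron-like cells, by 1.70. Of 29 cell cycle genes 0 were higher and 29 lower in neuron-like and 28 lower in noradrenergic neuron-like cells, and their part in the member counts was not tested.

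Of 81 members 72 were higher and 1 lower in mesenchyme-like than in progenitor-like cells, beside 30.9% higher and 34.8% lower among all genes. The median log2 fold change was 1.51 for members and -0.18 for all genes. It was 1.36 in complex I (33 higher, 1 lower), 1.01 in complex II (3 higher), 1.48 in complex III (7 higher), 2.15 in complex IV (12 of 12 higher) and 1.58 in complex V (17 higher). Scaling mattered here: by library size alone the members' median was 0.61 and that of all genes -1.13. SDHC had 78.6 and 107 normalised CPM in mesenchyme-like and 85.9 and 92.8 in progenitor-like cells (0.09, SE 0.22, edgeR adjusted p = 0.719), and was called lower by library size alone (-0.82), where SDHA (0.05) and SDHB (0.16) were not called. In the same direction as the members moved 79 of 81 cytoplasmic ribosomal protein genes (median 2.06), 15 of 16 early response and stress genes and 9 of 13 mitochondrially encoded genes, and their part in the member counts was not tested. Within cells of 3000 to 10000 UMIs 37 members were higher and 3 lower, with a median of 0.75.

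UQCR11 had 517 and 426 normalised CPM in mesenchyme-like and 29.5 and 45.4 in progenitor-like cells (log2 fold change 3.63, SE 0.19, edgeR adjusted p = 7.28e-33). UQCRH had 1444 and 1525 against 181 and 222 (2.88, SE 0.20), and UQCR10 542 and 566 against 80.8 and 109.7 (2.53, SE 0.15). COX4I1, the common isoform of a large nuclear-encoded subunit of complex IV, had 1146 and 1196 against 171 and 231 (2.55, SE 0.20). These groups did not overlap, and the library with the higher level differed from gene to gene. NDUFS7 (2.63, SE 0.20), NDUFS5 (2.59, SE 0.16), ATP5F1D (2.68, SE 0.17) and COX7A1 (2.57, SE 0.24) were also named by rank, as was COX6B2 (7.99, SE 0.54). ATP5MC1 was the 1 complex V gene not called (0.49, SE 0.25, edgeR adjusted p = 0.0758).

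Within ribosomal protein-rich cells, whose ribosomal protein shares were 27.8% in mesenchyme-like and 24.0% in progenitor-like cells, 42 members were higher and 4 lower, with a median of 0.45 (all genes 23.1% and 31.7%). By library size alone that split turned to 17 higher and 27 lower, with a median of -0.15. After COX6B2, UQCR11 had the largest rise at 2.31 (SE 0.15), with 634 and 515 normalised CPM against 99.7 and 124. COX4I1 was at 1.52 (SE 0.12). The 4 members called lower were NDUFA4L2 (-3.86), ATP5MC1 (-0.85), NDUFB1 (-0.74) and UQCRQ (-0.54). Of complex II, SDHA (0.85, SE 0.23) and SDHD (1.14, SE 0.22) were called, and SDHB (0.34, SE 0.18) and SDHC (0.31, SE 0.23) were not.

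Cardiomyocyte-like cells, with 14 and 21 cells, gave 3 members higher and 2 lower than progenitor-like cells, beside 3.64% and 4.3% of all genes. The median log2 fold change was 0.15 for members and -0.21 for all genes. DESeq2 called 7 higher and 1 lower, limma 2 higher and 3 lower, and with each cluster as its own unit 18 were higher and 3 lower. COX6B1 had 296 and 279 normalised CPM in cardiomyocyte-like and 114 and 158 in progenitor-like cells (1.06, SE 0.22, edgeR adjusted p = 0.000275). UQCRH (0.82, SE 0.25) and NDUFS5 (0.92, SE 0.31) were also higher, and NDUFS4, an accessory subunit of complex I, had 76.0 and 113 against 173 and 183 (-0.88, SE 0.29, edgeR adjusted p = 0.046). The muscle isoform COX7A1 had 84.5 and 41.6 against 25.2 and 21.8 (1.34, SE 0.47, edgeR adjusted p = 0.0609) and did not pass. The mitochondrial genome's own genes gave 11 higher and 0 lower of 13. On simulated data with the UMI totals of these groups, 27.2% of 2-fold changes and 77.8% of 4-fold changes were recovered. The changed genes were drawn at random from the tested genes above a low count limit. Most 2-fold changes of such genes were missed, and recovery at the members' own levels was not tested.

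NDUFA4L2, a paralogue of NDUFA4 that HIF-1 induces under hypoxia in human and mouse cells, was called lower in all 4 comparisons, which share the progenitor-like cells. It had 104 and 124 normalised CPM in neuron-like, 66.9 and 138 in noradrenergic neuron-like (-1.12, SE 0.22), 53.8 and 24.2 in mesenchyme-like (-2.71, SE 0.31) and 50.7 and 35.7 in cardiomyocyte-like cells (-2.42, SE 0.40), against 205 and 240 in progenitor-like cells. It was below progenitor-like cells in all 4 classes and both libraries, by edgeR adjusted p = 1.01e-05, 1.02e-05, 5.05e-13 and 1.8e-06 in that order of classes. The neuron-like difference was not called in limma (adjusted p = 0.094) or at the finer clustering (edgeR adjusted p = 0.055). Within progenitor-like cells it rose with the others between ribosomal protein-rich and ribosomal protein-poor cells (495 and 518 against 116 and 104; 2.20, SE 0.13). In plain CPM the floor plate-like class had 1057 and 1144 and the roof plate-like class 442 and 390, against 254 and 281 in progenitor-like cells. Floor plate-like cells were thus highest of the named classes and mesenchyme-like cells, at 35.7 and 15.2 CPM, were among the lowest, overlapping erythroid-like cells at 53.0 and 11.1.

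COX6B2, known as the testis isoform of COX6B, had 65.9 and 69.8 CPM in mesenchyme-like and 0.344 and 0.419 CPM in progenitor-like cells. These were 79 UMIs of 1152543 and 5 UMIs of 12960721 over both libraries, a ratio of 178 with an exact 95% counting interval of 73.0 to 562 (fitted log2 fold change 7.99, SE 0.54, edgeR adjusted p = 5.35e-25). The unnamed cluster 11d had 41.8 and 45.4 CPM, and trophoblast-like cells had 8.79 and 65.0 CPM, apart by library. COX7B2, also a testis isoform, was not tested across libraries because only 57 UMIs were counted: 21 in mesenchyme-like and 19 in progenitor-like cells, a ratio of 12.4 (exact 95% counting interval 6.36 to 24.4). By library these were 30.2 and 12.7 CPM in mesenchyme-like and 1.38 and 1.54 CPM in progenitor-like cells, so that the mesenchyme-like level differed between the libraries. Intervals cover counting error only, and free RNA in droplets was not estimated.

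COX7A1 had 104 and 81.2 CPM in mesenchyme-like and 115 and 48.8 in cardiomyocyte-like cells, which overlapped each other, against 31.3 and 25.6 in progenitor-like cells. It was not confined to these classes. In floor plate-like cells COX7A1 was called higher in ribosomal protein-rich than in ribosomal protein-poor cells, with a log2 fold change of 3.70. COX4I2, an isoform known from lung, had 4 UMIs in all cells, and COX8B, known from heart and muscle, had 0, so that both stayed untested at this depth. The floor of 3 UMIs was 0.231 CPM in progenitor-like cells. ATP5MC1 had 1073 and 808 CPM in trophoblast-like and 538 and 522 CPM in surface epithelium-like cells, classes of 5 to 10 cells per library, against 58.0 and 83.7 in progenitor-like cells. Trophoblast-like cells were above surface epithelium-like cells in both libraries.

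**Figure D5:**
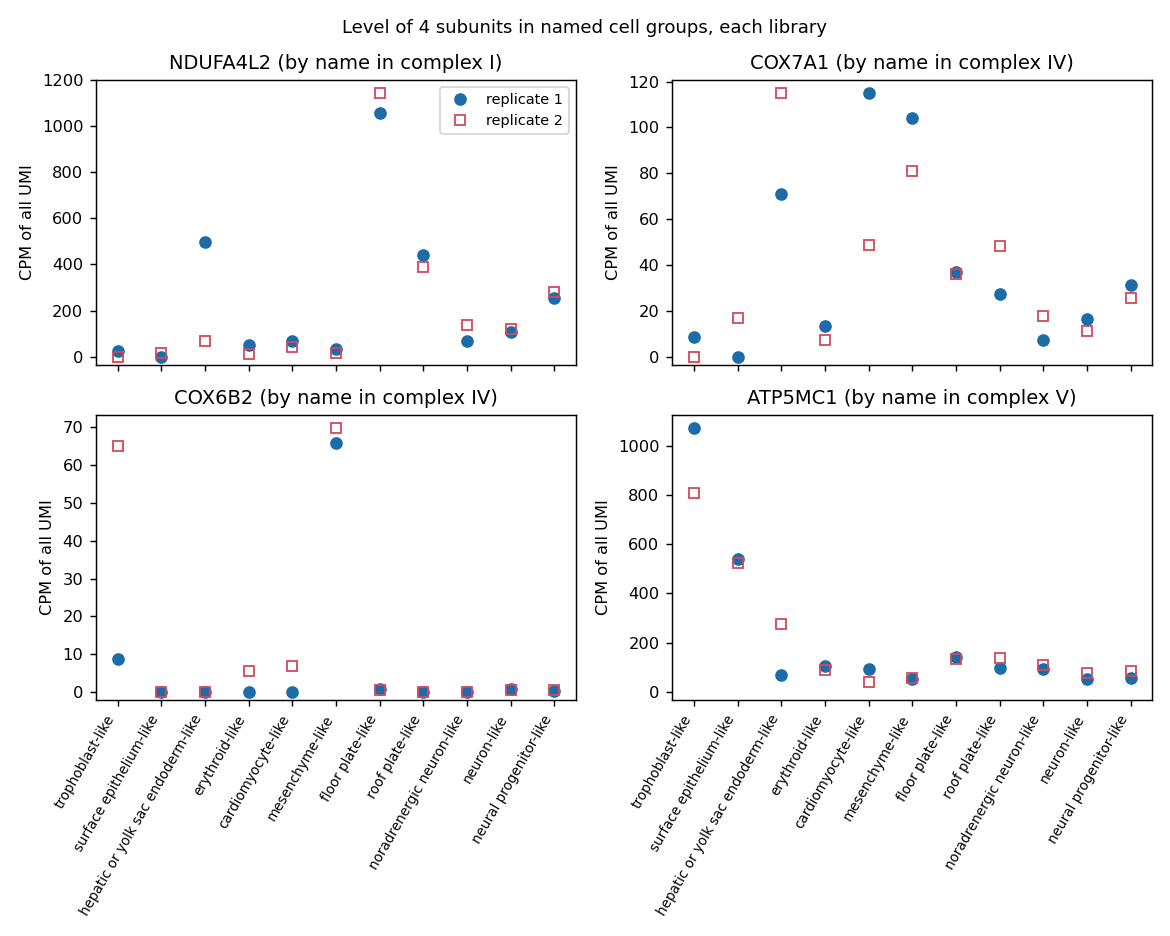
CPM of NDUFA4L2, COX7A1, COX6B2 and ATP5MC1 (one panel per gene) in the named cell groups, with a filled circle for replicate 1 and an open square for replicate 2. NDUFA4L2 peaks in floor plate-like cells (1057 and 1144 CPM), ATP5MC1 in trophoblast-like cells (1073 and 808 CPM), and COX6B2 is high in both libraries of mesenchyme-like cells (65.9 and 69.8 CPM).

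In mesenchyme-like cells, beside 30.9% higher and 34.8% lower among all genes, 13 of 43 assembly factors were higher and 14 lower, 10 of 18 carrier genes were higher and 2 lower, 9 of 19 tricarboxylic acid cycle genes were higher and 5 lower, 8 of 20 glycolysis genes were higher and 6 lower, and 36 of 77 mitochondrial ribosomal protein genes were higher and 11 lower. NDUFAF4 fell by 3.46 on the log2 scale, and the mitochondrially encoded COX1 rose by 3.52.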

How the data were processed

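Per the labels' protocols, cells were loaded on a 3′ single-cell kit. The submitters' processing notes name the bosTau9 build, Cell Ranger, Seurat 4.3.0 and R 4.1.2, without settings. What the authors deposited is a table of raw UMI counts for 17846 genes in 4437 barcodes. The most detected genes in a barcode were 3999 and the highest mitochondrial share was 4.98%. Each library's counts were identified by the barcode labels of the table.

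Cells with at least 500 genes, at least 1000 UMIs and at most 15% mitochondrial UMIs were kept, and called doublets (7) were removed; undetected doublets may remain. Median depth was 5232 UMIs per cell in replicate 1 and 5966 in replicate 2. Cells were clustered with scanpy 1.11.5 (2000 variable genes, 30 components, 15 neighbours, Leiden resolution 1.0) without 9057 held-out genes, among them all members. A cluster was named from at least 3 detected markers. Counts were summed per class and library and tested with edgeR 4.0.16 (R 4.3.3; TMM scaling, quasi-likelihood, library as an additive term, Benjamini-Hochberg adjustment) on 5215 held-out genes, for classes of at least 10 cells and 50000 UMIs in each library. An adjusted p under 0.05 is a call. Tests by ribosomal protein share left out ribosomal protein genes and used 4761 genes. Normalised CPM use TMM-scaled totals and plain CPM use UMI totals.

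The members and lists were chosen with earlier results of these data known. In comparisons of whole classes, the 10 largest called changes at 50 CPM or more with the same direction in both libraries were given. Members called against the majority and a list of isoforms and single subunits were also given. In comparisons by ribosomal protein share only some of these members were given. Between ribosomal protein-rich and ribosomal protein-poor progenitors, ATP5MJ (log2 fold change 3.61), NDUFB11 (3.46) and COX7B (3.40) also ranked among the 10 largest. On simulated data with 2-fold changes the neuron-like, noradrenergic neuron-like, mesenchyme-like and cardiomyocyte-like comparisons recovered 84.5%, 74.2%, 67.0% and 27.2%. Alternatives were DESeq2 1.42.0, limma 3.58.1, other scalings, filters, depths, clusterings and single libraries. The 2 libraries are a block because every class was measured in both. No genome of the build was used, so no coordinates or sequences are given. The erythroid-like comparison was not run, because replicate 1 held 9 cells.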

Additional observations from a re-analysis of the deposited data

Results flagged for a closer look

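The difference between neuronal and progenitor-like cells was not the same in ribosomal protein-rich and ribosomal protein-poor cells, and this difference was itself tested with an interaction term in edgeR. In the noradrenergic comparison it was smaller in ribosomal protein-rich cells for 56 of 81 members, beside 9.79% of all genes, and in the neuron-like comparison for 34 of 81, beside 8.84%. With DESeq2, with limma and by library size alone the noradrenergic count was 52, 37 and 44, and within cells of 3000 to 10000 UMIs it was 47 of 80. The neuron-like count was 32, 1 and 21 in the same settings, and within cells of 3000 to 10000 UMIs it was 10 of 80, with 2 members larger. The ribosomal protein share within each kind of cell also differed between the classes, at 12.9% in noradrenergic neuron-like against 24.0% in progenitor-like ribosomal protein-rich cells, and its part was not tested.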

How the results depend on the processing

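Of 139 recomputed values, 82 stayed with the main result, 51 moved and 6 turned direction; where a value moved the cause was not tested. limma called 3 members in neuron-like, 42 in noradrenergic neuron-like and 5 in cardiomyocyte-like cells (2 higher, 3 lower, against 3 higher and 2 lower), and DESeq2 8 in cardiomyocyte-like cells. Leiden resolution 0.5 and 2.0 gave 63 and 67 calls in neuron-like cells; the cardiomyocyte-like class held 3 and 7 cells there, too few to test. Each cluster as its own unit gave 21 calls in cardiomyocyte-like cells, and cells of 3000 to 10000 UMIs 40 in mesenchyme-like cells. Within ribosomal protein-rich cells, a setting chosen after seeing the data, calls were 26 for neuron-like, 20 for noradrenergic neuron-like and 46 for mesenchyme-like cells, with medians of -0.12, -0.0041 and 0.45; within ribosomal protein-poor cells the medians were 0.56 and 1.49.

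Median log2 fold changes of members in neuron-like, noradrenergic neuron-like, mesenchyme-like and cardiomyocyte-like cells were -0.0087, 0.56, 0.61 and 0.20 by library size alone, 0.52, 1.17, 0.75 and 0.23 in cells of 3000 to 10000 UMIs, and 0.47, 1.34, 1.94 and 0.56 with each cluster as its own unit. For the first 3 classes they were 0.59, 1.15 and 1.85 at Leiden resolution 0.5, and 0.95, 1.25 and 1.88 at 2.0. Cardiomyocyte-like cells gave 0.36 with DESeq2, 0.10 with limma, 0.070 with totals free of abundant genes, and 0.14 in cells of at least 2000 UMIs. Between ribosomal protein-rich and ribosomal protein-poor progenitors the median was 2.46 with DESeq2, 2.51 with limma and 1.99 by library size alone. It was 2.32 in cells of 3000 to 10000 UMIs and 2.52 with a limit of 15%. Single libraries gave 0.0584 to 0.0618 for cardiomyocyte-like cells and 2.47 to 2.49 for the progenitor division. These were plain differences of log2 CPM without a fit, so the estimate changed along with the library. A single library leaves no residual degrees of freedom, so calls were not made without a replicate.

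Without the replicate block calls were 30 in neuron-like, 64 in noradrenergic neuron-like, 73 in mesenchyme-like and 3 in cardiomyocyte-like cells (median 0.16), and the direction of no median changed. Summed levels with totals free of ribosomal protein, mitochondrially encoded and globin genes were 16275 CPM in noradrenergic neuron-like, 23180 in mesenchyme-like, 13590 in cardiomyocyte-like and 11159 in progenitor-like cells. In cells of 3000 to 10000 UMIs they were 11676 in mesenchyme-like, 10441 in cardiomyocyte-like and 7560 in progenitor-like cells, and in cells of at least 2000 UMIs 11368 in cardiomyocyte-like cells. Depth limits the small classes most: levels of classes with under 20 cells in a library rest on few cells.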

Other observations

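Erythroid-like cells (9 and 22 cells), in which embryonic globins took 49.5% of UMIs, had 14517 ± 184 CPM of members, and 47362 ± 1570 CPM when ribosomal protein, mitochondrially encoded and globin genes were left out of the total (SD, n = 2 libraries). Complex V made up 42.1% of their member UMIs, against 34.6% in progenitor-like cells, and complex II 1.60%, against 3.36%. In progenitor-like cells at 30% or more ribosomal protein UMIs, complex II made up 1.77% in replicate 1 and 1.96% in replicate 2. Complex V made up 37.0% and 36.7% there, so a low complex II share was not particular to erythroid-like cells. Hepatic or yolk sac endoderm-like cells (9 and 8 cells), a cluster that also carried 7 cardiomyocyte markers, had 22623 ± 550 CPM at a ribosomal protein share of 50.1%. The unnamed cluster 11a (13 and 17 cells) had 27287 ± 854 CPM and NDUFA4L2 at 709 and 743 CPM. The unnamed cluster 10, with a median of 1803 UMIs per cell, had 6597 ± 114 CPM.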
